A study of Mus musculus with 9 samples.

Results

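The genes described here encode subunits of the transcription factor NF-kB and regulators of it, among them inhibitors that its own activity induces. They were chosen by name, and each was read from the array feature whose platform annotation carries that gene's symbol and no other. Of 10 genes asked for (Rela, Nfkb1, Nfkb2, Relb, Nfkbia, Nfkbie, Nfkbiz, Bcl3, Tnfaip3 and Birc3), 9 had such a feature, 1 each, and Nfkb1 was not analysed here. All 9 stood among the 22180 genes tested, with no filter on low values.

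The cells were TAMH, an established mouse hepatocyte line from mice that carry a transgene for transforming growth factor alpha. The 9 arrays (Affymetrix Mouse Gene 2.1 ST) came in 3 groups of 3, all sampled at 9 h: a control kept in medium alone, a group exposed to 18 µM diquat and a group exposed to 126 µM paraquat. All 3 groups shared a medium with dexamethasone, insulin, transferrin, selenium and nicotinamide. Diquat and paraquat are viologens, bipyridylium herbicides that take up electrons from cellular enzymes and pass them to oxygen as superoxide. Replicate numbers come from the sample titles, and the descriptions of all 3 arrays of each herbicide call them replicate 1. The labels' protocol gives 3 dishes per treatment but does not state whether each array had a dish of its own or came from an independent culture; the p-values therefore reflect only how much the 3 samples vary, and that spread may be technical. Values are log2 expression from RMA, which subtracts background, brings the probe values of the arrays to 1 distribution and combines the probes of a feature. A difference of 1 is a doubling. The combined values were not on exactly 1 distribution, with array medians from 5.95 to 6.04. Levels of different features cannot be compared, so each gene is compared with itself across groups.

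In resting cells NF-kB dimers are held in the cytoplasm by inhibitors of the IkB family. Signals from cytokine and pattern receptors lead a kinase complex to mark these inhibitors for destruction, and the freed dimers enter the nucleus. Among the genes they switch on are those of the inhibitors and of ubiquitin-editing proteins that shut the upstream signal off, which makes a negative feedback loop. Dexamethasone activates the glucocorticoid receptor, which is known to oppose NF-kB in many cells.

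NF-kB acts by binding short DNA sites, many of them near gene starts, so the stretches of the members that hold matches to its consensus are shown first. RefSeq promoter windows on GRCm38.p6 were found for 7 of the 9 measured genes (all but Relb and Nfkbiz), with 10 windows in all, and the 250 bases before each start were searched on both strands for the NF-kB consensus. Of the 7 genes, 4 had at least 1 match, against 9.15% of the 16986 array genes with a window. Of the 10 windows, 6 had a match, against 7.25% of all 32841 windows. Several of the 6 lie before starts of the same gene, Nfkb2, and are not separate observations. The genes were chosen by name and include inhibitors that NF-kB induces, so shares above those of all genes were likely beforehand. A match is a run of letters and was not tested as a binding site here. The stretches run 5′ to 3′ on the gene's strand and capitals mark consensus matches on either strand. They are Nfkb2 at chr19:46304673-46304736 (plus strand), the stretches before its other starts at chr19:46305445-46305493 and chr19:46305680-46305739 (plus), Nfkbia at chr12:55492648-55492701 (minus), Nfkbie at chr17:45555569-45555628 (plus) and Tnfaip3 at chr10:19015411-19015560 (minus).
Nfkb2: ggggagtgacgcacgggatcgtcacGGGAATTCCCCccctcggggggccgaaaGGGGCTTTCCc
Nfkb2, next start: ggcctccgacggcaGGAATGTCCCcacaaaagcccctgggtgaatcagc
Nfkb2, last start: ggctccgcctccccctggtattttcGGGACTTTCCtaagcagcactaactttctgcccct
Nfkbia: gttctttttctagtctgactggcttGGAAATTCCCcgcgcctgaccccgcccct
Nfkbie: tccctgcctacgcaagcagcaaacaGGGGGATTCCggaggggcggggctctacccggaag
Tnfaip3: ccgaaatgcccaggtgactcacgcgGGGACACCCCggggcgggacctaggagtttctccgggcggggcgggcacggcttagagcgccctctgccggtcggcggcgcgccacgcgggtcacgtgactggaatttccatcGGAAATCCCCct

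Counted back from the start site, with -1 as the base before it, the first Nfkb2 stretch held overlapping matches that began at -39 and -38 and another at -11, and the others had 1 each, at -236 and -225 from their own starts. Nfkbia had its match at -29, Nfkbie at -106 and Tnfaip3 at -125 and -12. No match lay in the windows of Rela, Bcl3 or Birc3, or in the window before another start of Tnfaip3. Of the 4 genes with a match, Nfkbie passed the expression test with diquat and Nfkb2 with paraquat. Of the 3 without one, Rela passed with both. Among all genes tested, 7.02% passed with diquat and 4.57% with paraquat. A link between matches and expression was not tested.

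Among the DNA-binding subunits, Rela was higher with both herbicides and Nfkb2 with paraquat, by 1.12-fold to 1.13-fold. Rela encodes the transactivating subunit p65 of the canonical pathway. Its log2 level was 10.93, 10.84 and 10.89 on the control arrays, 11.05, 11.01 and 11.08 with diquat and 11.08, 11.07 and 11.04 with paraquat. All 6 treated arrays lay above all 3 controls. The rise was 0.16 ± 0.04 (SE) on the log2 scale with diquat, or 1.12-fold (limma, adjusted p = 0.0302), and 0.18 ± 0.04 with paraquat, or 1.13-fold (adjusted p = 0.024).

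Over the 18 alternative fits the log2 difference of Rela stayed between 0.14 and 0.20 with diquat and between 0.15 and 0.20 with paraquat. Its call did not hold in all of them. With diquat it passed in 13 of 18 alternative fits. It was lost without either of 2 control arrays, replicate 2 (0.14, adjusted p = 0.122) and replicate 3 (0.16, 0.0816), without diquat replicate 1 (0.16, 0.078) or 3 (0.14, 0.0702), and with the diquat and control arrays alone (0.16, 0.0737). With paraquat it passed in 12 of 18 and was lost without control replicate 2 (0.15, adjusted p = 0.107) or 3 (0.18, 0.0697), without paraquat replicate 1 (0.17, 0.0767), 2 (0.17, 0.0873) or 3 (0.19, 0.0599), and after centring the arrays on their medians (0.18, 0.0596).

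Nfkb2 encodes the precursor that is processed into the subunit of the non-canonical pathway and that itself acts as an inhibitor. Its levels were 10.00, 9.89 and 9.93 in controls, 10.05, 10.03 and 10.08 with diquat and 10.14, 10.12 and 10.06 with paraquat, and again no treated array fell into the control range. The paraquat rise was 0.17 ± 0.04 (SE), or 1.12-fold (limma, adjusted p = 0.0457). The diquat difference of 0.11 ± 0.04 did not pass (adjusted p = 0.138). Relb, the partner of the processed Nfkb2 product, ranged from 8.00 to 8.11 in controls, from 8.08 to 8.11 with diquat and from 8.11 to 8.13 with paraquat, so its groups met or overlapped. Its log2 differences from control were 0.03 (95% interval -0.05 to 0.12) and 0.06 (-0.03 to 0.14), neither past the test.

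The Nfkb2 call was close to the threshold and passed in 6 of 18 alternative fits. Among the others, it was lost with any single control left out (adjusted p = 0.0502, 0.18 and 0.13 for replicates 1 to 3), with any paraquat array left out (0.137, 0.148 and 0.0648), with diquat replicate 1 or 2 left out (0.0685 and 0.0531), after centring (0.0817), with the paraquat and control arrays alone (0.0679) and when all features were tested (0.0655). The log2 difference stayed between 0.14 and 0.20 in all 18.

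**Figure D1:**
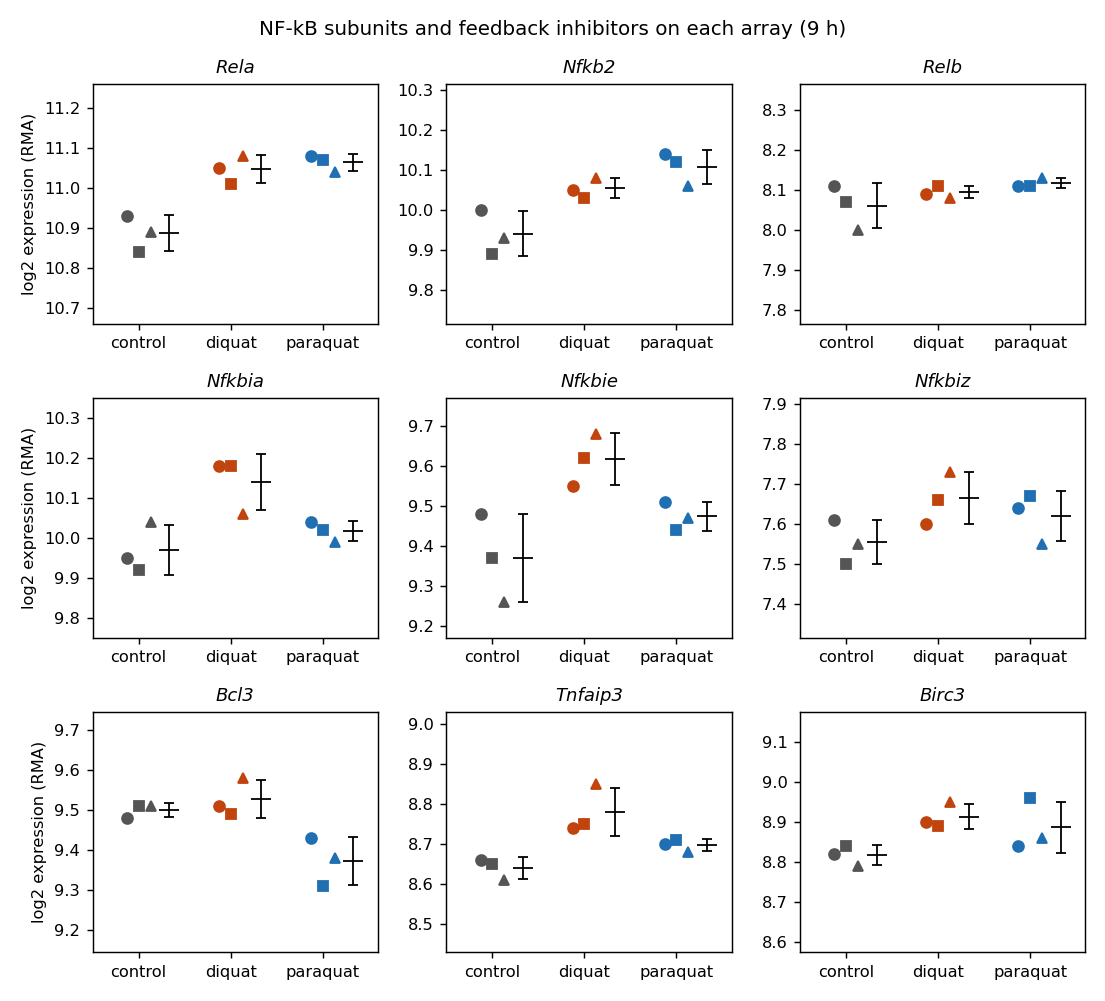
Log2 RMA expression of the 9 genes on each array, by group; circles, squares and triangles are replicates 1, 2 and 3, black bars are group means and whiskers are SD (n = 3), and each panel spans the same height on its own scale. All treated arrays of Rela and Nfkb2 lie above the controls, while Nfkbia, Nfkbie and Tnfaip3 are highest with diquat and Bcl3 is lowest with paraquat.

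In the IkB family, 1 of 4 genes passed with diquat and 0 of 4 with paraquat, where 7.02% and 4.57% of all genes did. Nfkbie, which encodes the cytoplasmic inhibitor IkB epsilon, stood at 9.48, 9.37 and 9.26 in controls, 9.55, 9.62 and 9.68 with diquat and 9.51, 9.44 and 9.47 with paraquat. The diquat arrays all lay above the controls, by 0.25 ± 0.06 (SE) in the mean, or 1.19-fold (limma, adjusted p = 0.0291), while the paraquat arrays overlapped them. The paraquat difference was 0.10 ± 0.06 (adjusted p = 0.47). Controls differed among themselves by more for this gene (SD 0.11) than for any other of the 9.

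Nfkbie passed for diquat in 10 of 18 alternative fits. Among the others, leaving out any of 5 arrays ended the call: the second or the third control (adjusted p = 0.0974 and 0.0884), the second or the third diquat array (0.0547 and 0.0834) or the third paraquat array (0.0509). So did fits with the diquat and control arrays alone (0.0873) or with array weights (0.0731). The log2 differences in these 7 fits ran from 0.19 to 0.25.

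Nfkbia encodes IkB alpha, the inhibitor whose loss and fast resynthesis set the timing of the response. Its levels were 9.95, 9.92 and 10.04 in controls, 10.18, 10.18 and 10.06 with diquat and 10.04, 10.02 and 9.99 with paraquat. The diquat arrays lay above the controls, with the third close to the highest control, and the paraquat arrays overlapped them. The diquat difference of 0.17 ± 0.05 (SE) missed the threshold (limma, adjusted p = 0.0568) and passed in 6 of 18 alternatives, among them after centring (0.21, adjusted p = 0.0211), with array weights (0.20, 0.0166) and without diquat replicate 3 (0.21, 0.0237) or control replicate 3 (0.20, 0.049). With paraquat it was 0.05 (95% interval -0.06 to 0.15).

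Nfkbiz and Bcl3 encode nuclear members of the family, which act on promoters together with NF-kB dimers. Nfkbiz ranged from 7.50 to 7.61 in controls, from 7.60 to 7.73 with diquat and from 7.55 to 7.67 with paraquat, with overlapping groups and differences of 0.11 ± 0.05 and 0.07 ± 0.05 (SE) that did not pass. Bcl3 was the 1 gene of the 9 with a lower mean under paraquat. Its levels were 9.48, 9.51 and 9.51 in controls, 9.51, 9.49 and 9.58 with diquat and 9.43, 9.31 and 9.38 with paraquat, so that all 3 paraquat arrays lay below all other arrays. The paraquat difference was -0.13 ± 0.04 (SE) and did not pass (limma, adjusted p = 0.148), and that with diquat was 0.03 ± 0.04.

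Neither regulator of upstream ubiquitin signals passed with either compound. Tnfaip3 encodes A20, a ubiquitin-editing enzyme that removes the activating chains from signalling adaptors. Its levels were 8.66, 8.65 and 8.61 in controls, 8.74, 8.75 and 8.85 with diquat and 8.70, 8.71 and 8.68 with paraquat, and both treated groups lay wholly above the controls. The differences were 0.14 ± 0.04 (SE; limma, adjusted p = 0.0613) with diquat and 0.06 ± 0.04 (adjusted p = 0.608) with paraquat, and Tnfaip3 passed in 0 of 18 alternatives for either. Birc3, the ubiquitin ligase cIAP2 of the TNF receptor complex, stood at 8.82, 8.84 and 8.79 in controls, 8.90, 8.89 and 8.95 with diquat and 8.84, 8.96 and 8.86 with paraquat. The diquat arrays were above the controls and the lowest paraquat array met the highest control, with differences of 0.10 ± 0.04 and 0.07 ± 0.04 (SE; adjusted p = 0.207 and 0.51).

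In all, 2 of the 9 genes rose with diquat (Rela and Nfkbie) and 0 fell, where 7.02% of the 22180 genes tested were called, 4.13% higher and 2.89% lower. That split depended on scaling, with 917 genes higher and 641 lower as deposited, 1079 and 300 after centring and 924 and 927 after quantile normalization. With paraquat 2 rose (Rela and Nfkb2) and 0 fell, where 4.57% of all genes were called, 2.33% higher and 2.24% lower. With 9 genes a single call moves the share by more than either background, and the count lay between 0 and 3 over the alternatives for diquat and between 0 and 2 for paraquat. For 6 of 9 genes all diquat arrays lay above all controls and for 0 below, against 10.1% and 11.2% of all genes. For paraquat 3 lay above and 1 below, against 9.05% and 10.4%. After centring the diquat count was 7 and after quantile normalization 5, where 15.9% and 12.7% of all genes lay above. The median log2 difference over the 9 genes was 0.11 with diquat, beside -0.02 over all genes, and 0.07 with paraquat, beside 0.00. Both comparisons use the same controls, so the 2 counts are not independent. Diquat replicate 3 differed most from its group mates, with a root-mean-square difference of 0.134 in log2 units, where the remaining arrays had 0.0714 to 0.115.

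**Figure D2:**
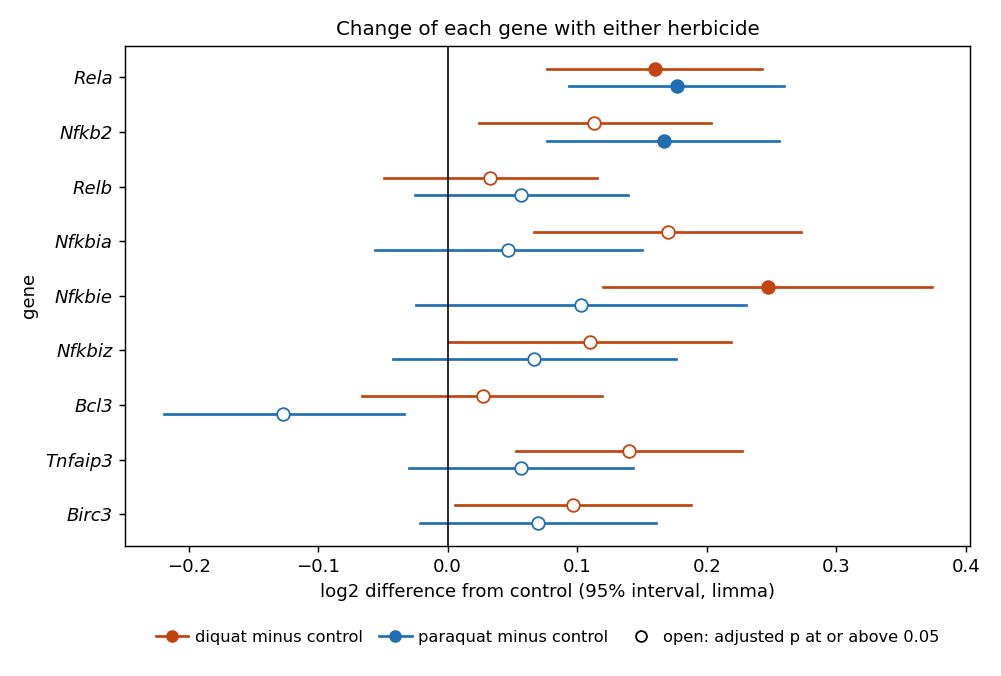
Log2 difference from control of each gene with diquat (red) and paraquat (blue); lines are 95% intervals of the limma fit and filled points passed the adjusted p. Filled points are Rela with both compounds, Nfkbie with diquat and Nfkb2 with paraquat, and all estimates lie between -0.13 and 0.25.

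Set against each other, the compounds gave no call. In limma 0 of the 9 genes and 0% of all genes passed the adjusted p for paraquat minus diquat, and 3 of 9 had an unadjusted p under 0.05, beside 10.7% of all genes. The doses differ, 18 µM against 126 µM, so the difference is between these exposures. The 3 were Nfkbia, Nfkbie and Bcl3, all lower with paraquat. The difference was -0.12 for Nfkbia (95% interval -0.23 to -0.02; adjusted p = 0.433), -0.14 for Nfkbie (-0.27 to -0.02; adjusted p = 0.444) and -0.15 for Bcl3 (-0.25 to -0.06; adjusted p = 0.343).

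For these 3 genes and Tnfaip3 (-0.08, 95% interval -0.17 to 0.00) all paraquat arrays lay below all diquat arrays, where 5.18% of all genes did so and 5.36% lay above. The subunits were close, with differences of 0.02 for Rela (95% interval -0.07 to 0.10), 0.05 for Nfkb2 (-0.04 to 0.14) and 0.02 for Relb (-0.06 to 0.11). The split depended on scaling. After centring the same 4 genes lay below, where 8.49% of all genes did, and after quantile normalization Bcl3 and Nfkbie lay below while Nfkb2 and Rela lay above, where 6.57% and 6.58% of all genes did. Nfkbiz and Birc3 differed by -0.04 and -0.03, and the sign of the latter turned after quantile normalization.

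**Figure D3:**
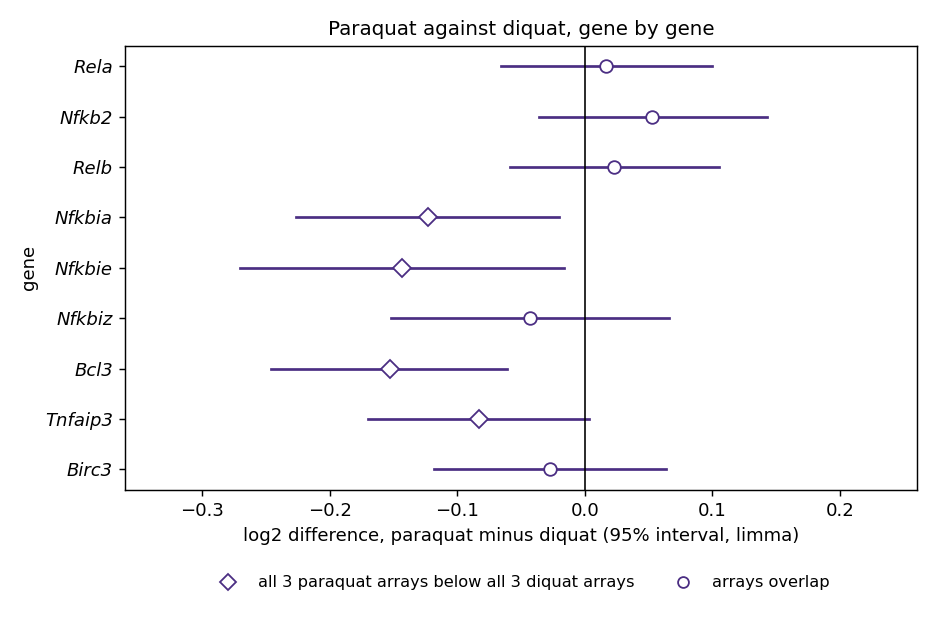
Log2 difference of paraquat minus diquat for each gene with its 95% interval from limma; diamonds mark genes whose 3 paraquat arrays all lie below the 3 diquat arrays. Nfkbia, Nfkbie, Bcl3 and Tnfaip3 are diamonds left of 0 and the 3 subunits lie near 0; none passed the adjusted p.

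The rest of the pathway was read from 4 lists with 113 measured genes of 124 entries. With diquat 23 rose and 1 fell, where 7.02% of all genes were called, and with paraquat 15 rose and 2 fell, where 4.57% were. Over the alternatives the counts lay between 19 and 27 and between 13 and 23. Medians over the 113 were 0.03 and 0.02, beside -0.02 and 0.00 over all genes. An unadjusted p under 0.05 was found for 46 of the 113 with diquat, beside 21.6% of all genes, and for 32 with paraquat, beside 15.0%. All diquat arrays lay above all controls for 37 and below for 9, beside 10.1% and 11.2% of all genes. All paraquat arrays lay above for 24 and below for 13, beside 9.05% and 10.4%. The lists were chosen with earlier results of these data known. Between the compounds 0 of 113 passed, and 22 had an unadjusted p under 0.05, beside 10.7% of all genes.

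Of 26 ligand and receptor genes, 5 rose with diquat and 2 with paraquat, where 4.13% and 2.33% of all genes did, and none fell. With diquat the rises were 1.26-fold for the interleukin-1 co-receptor Il1rap, 1.24-fold for the receptor antagonist Il1rn, 1.22-fold for Tlr3, a sensor of double-stranded RNA, and 1.22-fold for the cytokine Tnf (limma, adjusted p = 0.0116, 0.0226, 0.0122 and 0.029). Tnfrsf12a, the receptor for TWEAK, rose 1.21-fold with each compound (adjusted p = 0.00147 with diquat and 0.00243 with paraquat), and Il1rn rose 1.34-fold with paraquat (adjusted p = 0.00612). Tnf, Il1rap and Tlr3 differed from control by 0.11, 0.11 and 0.02 on the log2 scale with paraquat, none past the test.

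With diquat, where 4.13% of all genes rose and 2.89% fell, 4 of 30 adaptor and kinase genes rose and none fell. They were Bcl10, which links antigen and other receptors to the kinase complex, at 1.25-fold, the adaptor Traf1 at 1.23-fold, Fbxw11, a recognition subunit of the ligase that marks IkB proteins for degradation, at 1.16-fold, and Ikbkg, which encodes NEMO, the regulatory subunit of the kinase complex, at 1.13-fold. With paraquat, where 2.33% of all genes rose and 2.24% fell, 1 of the 30 rose and 1 fell. Bcl10 rose 1.21-fold and Birc2 fell 1.40-fold (limma, adjusted p = 0.00374 and 0.0208). Birc2 encodes cIAP1, the closest relative of the Birc3 product, and was lower on all diquat arrays as well, by 0.28 ± 0.10 (SE), which did not pass (adjusted p = 0.134). The catalytic subunit gene Ikbkb changed by 0.04 and 0.05, neither past the test.

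Among 18 other subunits and inhibitors, 3 rose with each compound, where 4.13% and 2.33% of all genes did, and none fell. The 3 were the same genes with both. Rnf11, a partner of A20, rose 1.36-fold and 1.24-fold with diquat and paraquat, Tnip3, an A20-binding inhibitor, 1.33-fold and 1.18-fold, and Nkrf, a repressor that acts at NF-kB promoters, 1.32-fold and 1.23-fold. With each compound these 3 changes were larger than that of any of the 9 member genes. The remaining IkB genes Nfkbib and Nfkbid and the subunit gene Rel differed from control by 0.02, 0.10 and 0.13 with diquat and by 0.05, -0.03 and 0.05 with paraquat, none past the test.

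Of 39 other genes known as NF-kB targets, 11 rose and 1 fell with diquat, beside 4.13% and 2.89% of all genes. With paraquat 9 rose and 1 fell, beside 2.33% and 2.24%. The largest were the cyclooxygenase gene Ptgs2, 4.89-fold and 4.42-fold, the growth factor gene Csf2, 2.56-fold and 2.19-fold, and the chemokine gene Cxcl2, 2.32-fold and 2.20-fold. With diquat Ier3 followed at 1.84-fold, and with paraquat Lif at 1.58-fold. Many of these genes also answer to other transcription factors. The 1 that fell, Csf1, named after its values were seen, was 1.25-fold and 1.18-fold lower. The adhesion molecule genes Icam1 and Vcam1, also named after their values were seen, differed from control by 0.10 and 0.11 with diquat and by 0.03 and 0.00 with paraquat and did not pass, and Il6, at 4.48 in controls, was close to the lowest values of the table.

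**Figure D4:**
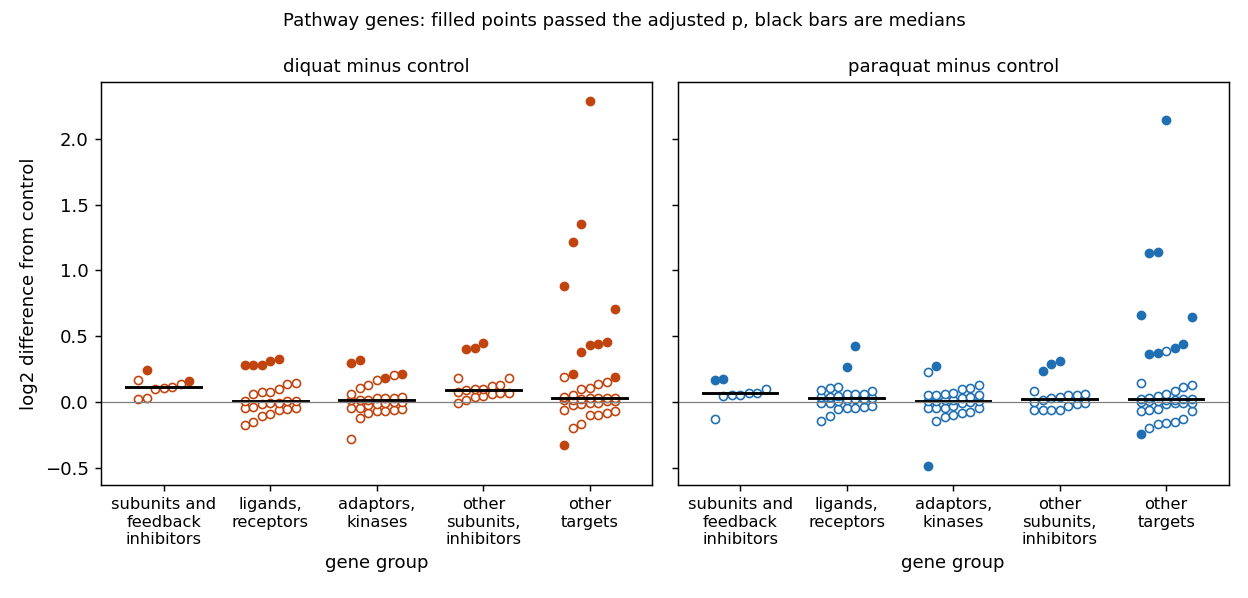
Log2 difference from control for the 9 subunits and feedback inhibitors and the 4 other pathway lists, with diquat on the left and paraquat on the right; each point is a gene, filled points passed the adjusted p and black bars are medians. The medians lie between 0.01 and 0.11 and the points furthest from 0 are targets, with Ptgs2 highest at 2.29 and 2.14.

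The hepatocyte markers Ttr, Cps1 and Fga fell with both compounds and Hnf4a fell with diquat. So 4 and 3 of 9 measured markers fell and 0 rose, where 2.89% and 2.24% of all genes fell. The remaining markers did not pass with either compound. With diquat and paraquat, Alb differed by -0.01 and -0.01, Krt8 by 0.04 and 0.03 and Krt18 by 0.10 and 0.07. Apoa1 differed by -0.16 and -0.22, and Serpina1a by -0.07 and 0.02. The mean log2 level of the 9 hepatocyte markers was 10.42 to 10.48 on control arrays, 10.21 to 10.26 with diquat and 10.17 to 10.31 with paraquat. Immune cells carry high levels of NF-kB genes, and the mean of 10 macrophage markers was 6.41 to 6.43, 6.36 to 6.44 and 6.43 to 6.47 in the 3 groups. Of these, Cd68, a lysosomal protein gene, rose by 0.40 with diquat (limma, adjusted p = 0.0343). With paraquat it differed by 0.35, which did not pass (adjusted p = 0.0732). The other 9 did not pass with diquat, and none of the 10 passed with paraquat. In controls 2 of the 10, Ptprc and Vsig4, lay at 5.38 and 4.78, below 5.42, the lower quartile over all genes. Cd14 stood at 10.14 in controls. As levels of different features cannot be compared, these levels do not say how much of each RNA was present. None of 7 lymphocyte, 6 endothelial and 6 stellate cell or fibroblast markers passed with either compound. The part of these markers in the results above was not tested, and in bulk RNA fewer cells of a type and less RNA per cell cannot be told apart.

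For each gene that passed, the genes with the most similar profile were taken as those with the smallest root-mean-square difference over the 9 arrays, each array set against the gene's own control mean. For Rela these were the ceramide synthase gene Cers6 (0.0188), the cathepsin gene Ctsl (0.0254) and the sterol synthesis gene Msmo1 (0.0254). For Nfkb2 they were Bmp4 (0.0294), Senp5 (0.0305) and Zzz3 (0.031). For Nfkbie they were Ralgapa2 (0.0339), the kinase gene Mark3 (0.0379) and Htr2a (0.0393). None of these 9 nearest genes is on the pathway lists. Those lists hold only 113 of the 22180 genes tested, so this was likely beforehand.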

How the data were processed

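The deposited table held 34472 features with values on a log2 scale from 3.89 to 13.19, rounded to 2 decimals. The authors made these log2 values with RMA in Affymetrix Expression Console 1.1, per the submitters' processing notes, for which no settings were given in the sources used here. Scanner files were not used here, so low values may be background. Precision is limited by the 3 arrays per group. Groups come from the sample titles. Of the features, 23521 carried 1 gene symbol in the platform annotation, and the feature with the highest mean was kept for each of 22180 genes. The values were fitted as deposited in limma 3.58.1 under R 4.3.3 (lmFit, eBayes), in 1 fit of all 9 arrays with a mean for each group and no covariates, and p-values were adjusted by Benjamini-Hochberg over all 22180 genes, with a threshold of 0.05. The fit was tested on simulated data. Named genes were all members and up to 4 called genes of each other list and contrast with the largest change. The 3 genes most similar to each called member, without gene models and small RNAs, were also named. Named outside this rule were Ikbkb, Nfkbib, Nfkbid, Rel, Il6, single cell type markers and the genes marked in the text. The lists, including 5 of cell type markers, and the members were chosen with earlier results of these data known. The 18 alternatives were each array left out, array weights, quantile normalization, centring of the arrays, all features, feature means, the 2 groups alone, a filter on dim genes, a robust prior with an intensity trend, and a block for the replicate number. The counts of groups that do not overlap under other scalings were added after seeing the data. Promoter sequences are RefSeq's, on GRCm38.p6. No feature coordinates are printed, since the sources used here name no build for the array annotation.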

Additional observations from a re-analysis of the deposited data

How the results depend on the processing

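The count of members called for diquat, 2 as reported, was 1 with the replicate block and 0 with the 2 groups alone, and lay between 0 and 2 when 1 array was left out. For paraquat, also 2 as reported, it was 1 with the replicate block, 0 after centring, 1 with the 2 groups alone and 1 with all features tested, and between 0 and 2 when 1 array was left out. The fits of fewer arrays have fewer degrees of freedom, and otherwise the cause was not tested. With the replicate block Nfkbie (diquat, adjusted p = 0.0544) and Nfkb2 (paraquat, 0.0695) lost their calls. Same-numbered arrays deviated from their group means with correlations from -0.192 to 0.198, and 2 of 9 arrays correlated best with their own number, so the numbers were not taken as pairs.

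No member's difference from control took the opposite sign in the 18 alternatives, and that of Bcl3 with diquat, 0.027 as reported and not called, was 0 without diquat replicate 3. Between the compounds 4 uncalled values did: Rela to -0.013 after centring and to -0.002 without diquat replicate 2 (from -0.002 to 0.033 over the arrays left out), Relb to -0.007 after centring and Birc3 to 0.002 after quantile normalization. Counts over all genes moved by more than 1.5 times from 1558 for diquat, to 959 with the 2 groups alone and 887, 802 and 1000 without control replicate 1, 2 or 3. For paraquat they moved from 1014 to 1623 with array weights, to 596 without control replicate 1 and 574 without the second, and to 575 without paraquat replicate 2 and 574 without the third. Between the compounds they moved from 0 to 4 with the filter, 1 after centring, 4 after quantile normalization and 3 and 1 without paraquat replicate 1 or 2. Counts over the other pathway genes stayed within 1.5 times.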

Other observations

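Of the 18 other subunits and inhibitors, 17 had a lower mean with paraquat than with diquat, as did 9899 of all 22180 genes. After centring 17 and 13824 did, and after quantile normalization 15 and 10877. The median log2 difference of the 18 was -0.10 as deposited, beside 0.01 over all genes. None of the 18 passed limma's adjusted p between the compounds, and 7 had an unadjusted p under 0.05, where 10.7% of all genes did. For 7 of the 18 all paraquat arrays lay below all diquat arrays, where 5.18% of all genes did. They were Tnip3 (-0.18 ± 0.05, SE), the RNA-degrading regulator gene Zc3h12a (-0.20 ± 0.07), Rnf11 (-0.14 ± 0.05), the IkB-binding Ras-like gene Nkiras1 (-0.13 ± 0.04), Nkrf (-0.11 ± 0.04), the linear-chain deubiquitinase gene Otulin (-0.10 ± 0.05) and the kinase-like inhibitor gene Irak3 (-0.05 ± 0.04), named after their values were seen. The count was 8 after centring, where 8.49% of all genes lay below, and 3 after quantile normalization, where 6.57% did. These arrays are the same as those behind the differences in Nfkbia, Nfkbie, Bcl3 and Tnfaip3 between the compounds.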
